A study of Mus musculus with 6 samples.

Results

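The genes described here act in bone morphogenetic protein (BMP), activin and transforming growth factor beta (TGF-beta) signalling. They are its ligands, receptors, Smad proteins, antagonists and Id targets, chosen by gene name. Their values were no criterion, but the list was chosen with earlier results of these data known. Of 35666 gene names on the array, 43 belong to this set, and they are read by 59 of its 55681 probes. All 43 passed the filter on dim signals, and 58 of the 59 probes were well above background on all 6 arrays; the exception is an additional Bmp4 probe. The samples were primary somatosensory cortex (S1, the cortical area that receives touch input) of C57BL/6 mice at postnatal day 7, measured as total RNA on 1 single-colour (Cy3) Agilent array each. The control group held 3 cortices carrying floxed Lhx2 alleles (Lhx2f/f) with no Cre named, although their sample titles call them wild type. The other group held 3 cortices labelled Lhx2 cKO (Lhx2f/f;Nex-Cre), in which Nex-Cre, driven from the Neurod6 (Nex) locus, recombines the floxed alleles in young excitatory neurons of the cortex and not in glia, vessels or most interneurons. Both groups thus carry the floxed alleles. Whole tissue was used, so fewer cells of a type and less RNA per cell cannot be told apart. No label states that the cortices came from separate animals. The p-values therefore cover the spread among these 6 samples alone, which may be technical, although Y-linked signal (below) shows that the controls did not all come from the same animal.

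Ligands of this family are secreted dimers that bind pairs of type I and type II serine/threonine kinase receptors. BMP-type receptors phosphorylate Smad1, Smad5 and Smad9, whereas activin and TGF-beta receptors phosphorylate Smad2 and Smad3; both groups of Smads enter the nucleus with the shared partner Smad4. Smad6 and Smad7 are induced by the pathway and restrain it, and the Id genes, which encode inhibitors of basic helix-loop-helix factors, are classical BMP targets. In the developing cortex BMPs are known for promoting astrocyte formation and for holding back oligodendrocyte differentiation, and TGF-beta is known for its role in microglial maturation.

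The labels were checked first on the targeted gene. The Lhx2 probe (chromosome 2, 38224933 to 38224992 on mm9) read 3.62, 3.63 and 3.55 in the controls and 4.55, 4.68 and 4.89 in the arrays labelled cKO (log2 of the signal over the 75th percentile of its array, the scale of every level below). This log2 difference of 1.1 (SE 0.11, limma adjusted p = 0.0674) is opposite to a loss of transcript. The labels do not say which exons recombination removes, and a probe outside them checks nothing. The samples are therefore called the arrays labelled cKO, and every direction rests on the labels. Neurod6, the gene whose locus drives Nex-Cre, read 2.27, 2.13 and 2.35 against 2.85, 2.5 and 2.52, also with separate groups (log2 difference 0.37, SE 0.13, adjusted p = 0.525). All 9 markers of excitatory cortical neurons passed the filter, 7 of them with a positive log2 difference. All 6 striatal and all 11 meningeal markers passed as well, so passing the filter does not identify the tissue. Control replicate 3 stood apart in striatal markers, with a summed level of 20.5 over 6 markers beside 8.99 to 12.1 on the other 5 arrays. It was also the highest control for Bmp4, Id1, Id3, Id4 and Smad6, and the part of striatal tissue in those values was not tested. The arrays lay on 1 slide. Y-linked signal, a sign of male tissue, was present in control replicates 1 and 3. It was absent in control replicate 2 and in all arrays labelled cKO, so sex was partly confounded with group. Between 86.7% and 91.1% of spots gave signal well above background, 0 reached saturation, and the number of arrays limits the precision.

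None of the 43 genes passed the threshold, an adjusted p under 0.05 over all 32832 genes tested with limma. The background was 0.00914% of genes (3 of them), all higher. The gene that came closest was Bmp2, at 3.19-fold lower signal. At an unadjusted p under 0.05, 11 of the 43 (25.6%) were counted, 9 lower and 2 higher, beside 7.5% of all genes (4.37% lower and 3.12% higher). That count was 6 without control replicate 1 and 4 with Y-linked signal as a term in the fit. Control and labelled cKO values were fully separate for 15 of the 43 (34.9%), 10 lower and 5 higher, beside 13.2% of all genes (6.2% lower and 6.98% higher). The differences lay on both sides: 23 were below 0 and 20 above 0, with a median log2 difference of -0.04 beside 0.02 over all genes. The plot of values by array shows the 16 members with groups that did not overlap or with an unadjusted p under 0.05.

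**Figure D1:**
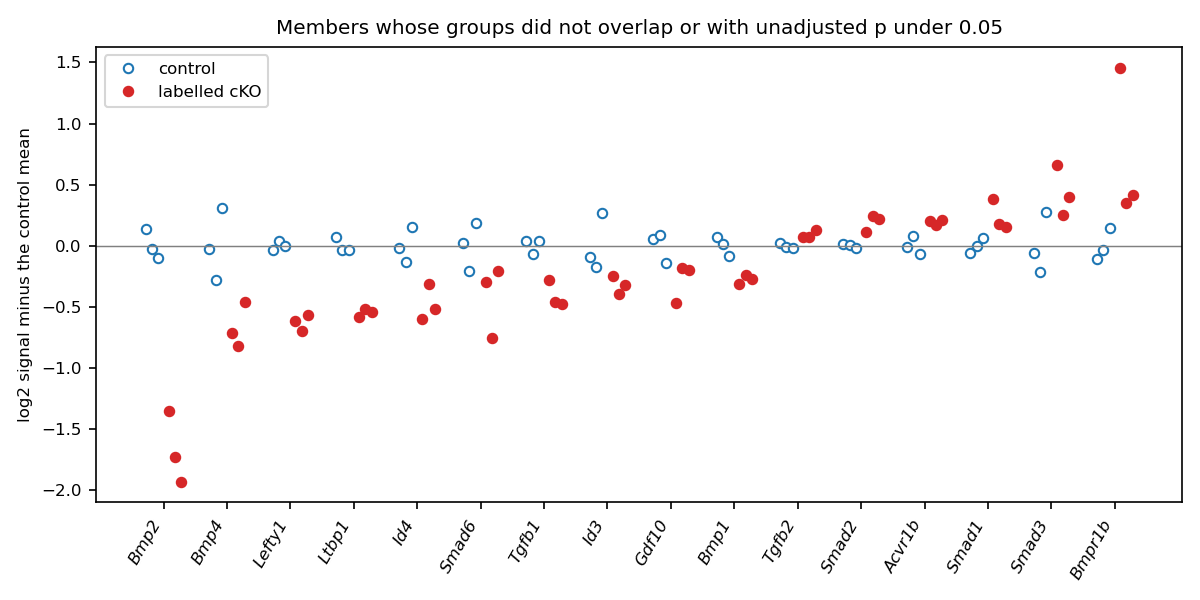
Log2 signal of 16 members on each of the 6 arrays, minus the mean of the 3 controls (vertical axis), for control arrays (open blue circles) and arrays labelled cKO (filled red circles). Bmp2 stands apart, with log2 values 1.36 to 1.93 below the control mean, and for Smad3 alone among these members the groups overlap.

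The BMP-type ligands held the largest difference of the set. Bmp2, a ligand that acts through Bmpr1a, Bmpr1b and Bmpr2, read -0.32, -0.48 and -0.56 in the controls and -1.81, -2.19 and -2.39 in the arrays labelled cKO (probe at chromosome 2, 133388260 to 133388319 on mm9). Every array labelled cKO was well below every control, and the gap between the groups was wider than the spread within either. The log2 difference was -1.67 (SE 0.16, n = 3 per group), with an adjusted p of 0.0607, and Bmp2 ranked 11 of the 32832 genes by p. Within slide row 1 and row 2, the rows that hold an array of each group, the log2 difference of Bmp2 was -1.87 and -1.90. In both rows the control lay in slide column 1 and the array labelled cKO in column 2. Within-row values, here and below, therefore do not separate group from slide column. Under 6 other ways of processing, among them quantile normalization (adjusted p = 0.048) and normexp background correction (log2 difference -1.43, adjusted p = 0.00597), Bmp2 passed the threshold over all genes. With Y-linked signal as a term in the fit the log2 difference was -1.63 (adjusted p = 0.507).

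Bmp4, the closest relative of Bmp2 and able to signal through the same receptors, read 0.95, 0.69 and 1.29 in the controls and 0.26, 0.16 and 0.52 in the arrays labelled cKO. The groups did not overlap, with 1.58-fold lower signal (log2 difference -0.66, SE 0.17, adjusted p = 0.356). The difference was smaller beside the control without Y-linked signal, at -0.38, and within slide row 2, at -0.18. The additional Bmp4 probe was not well above background on any array. Gdf10, a divergent BMP-type ligand known from Bergmann glia, read -0.73, -0.70 and -0.93 against -1.25, -0.97 and -0.99. Its groups were close but separate (log2 difference -0.28, SE 0.12, adjusted p = 0.667).

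The other BMP-type ligands overlapped between the groups and followed single arrays. Bmp6 read -0.77, -1.30 and -0.63 in the controls and -1.15, -1.96 and -0.76 in the arrays labelled cKO, and Bmp7 read 1.27, 0.33 and 0.91 against 0.58, -0.03 and 1.15. Both were lowest in cKO replicate 2 and, among the controls, lowest in control replicate 2. Markers of the meninges and fibroblasts, a known site of BMP ligand expression around the cortex were also lowest in these 2 arrays: their median relative to the control mean was -1.15 in cKO replicate 2 and -0.28 in control replicate 2, and it was 0.25 and 0.05 in the other controls. In cKO replicates 1 and 3 it was -0.24 and 0.29. The summed level of these 11 markers ranged from 25.9 to 39.9 in the controls and from 13.6 to 40.7 in the arrays labelled cKO, in units of the array's 75th percentile, and their part in the values of Bmp6 and Bmp7 was not tested. Bmp5 and Bmp3, the latter a ligand known to oppose BMP signalling, had log2 differences of 0.07 and 0.14, each smaller than its SE.

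Among the activin and TGF-beta-type ligands, Tgfb1 was the one with the smallest p. It is read by a probe spotted 10 times per array and gave -2.38, -2.49 and -2.39 in the controls and -2.70, -2.88 and -2.90 in the arrays labelled cKO. The log2 difference was -0.41 (SE 0.10, adjusted p = 0.317), and no array of one group reached the range of the other. Tgfb2, an isoform made by neurons and astrocytes, went the other way by a small amount: 0.65, 0.61 and 0.60 against 0.69, 0.69 and 0.75. This log2 difference of 0.09 was close to its SE of 0.08, so the separation of the groups rests on a narrow spread between arrays. The other Tgfb2 probe gave 0.15 with overlapping groups. Tgfb3 (-0.06), Gdf11 (0.10), Nodal (0.12), Inhbb (0.20) and Inhba (-0.20) had overlapping groups. Inhba, which encodes a subunit of activin and is induced by neuronal activity, read 0.98 in cKO replicate 1 and between 1.81 and 2.22 on the other 5 arrays.

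**Figure D2:**
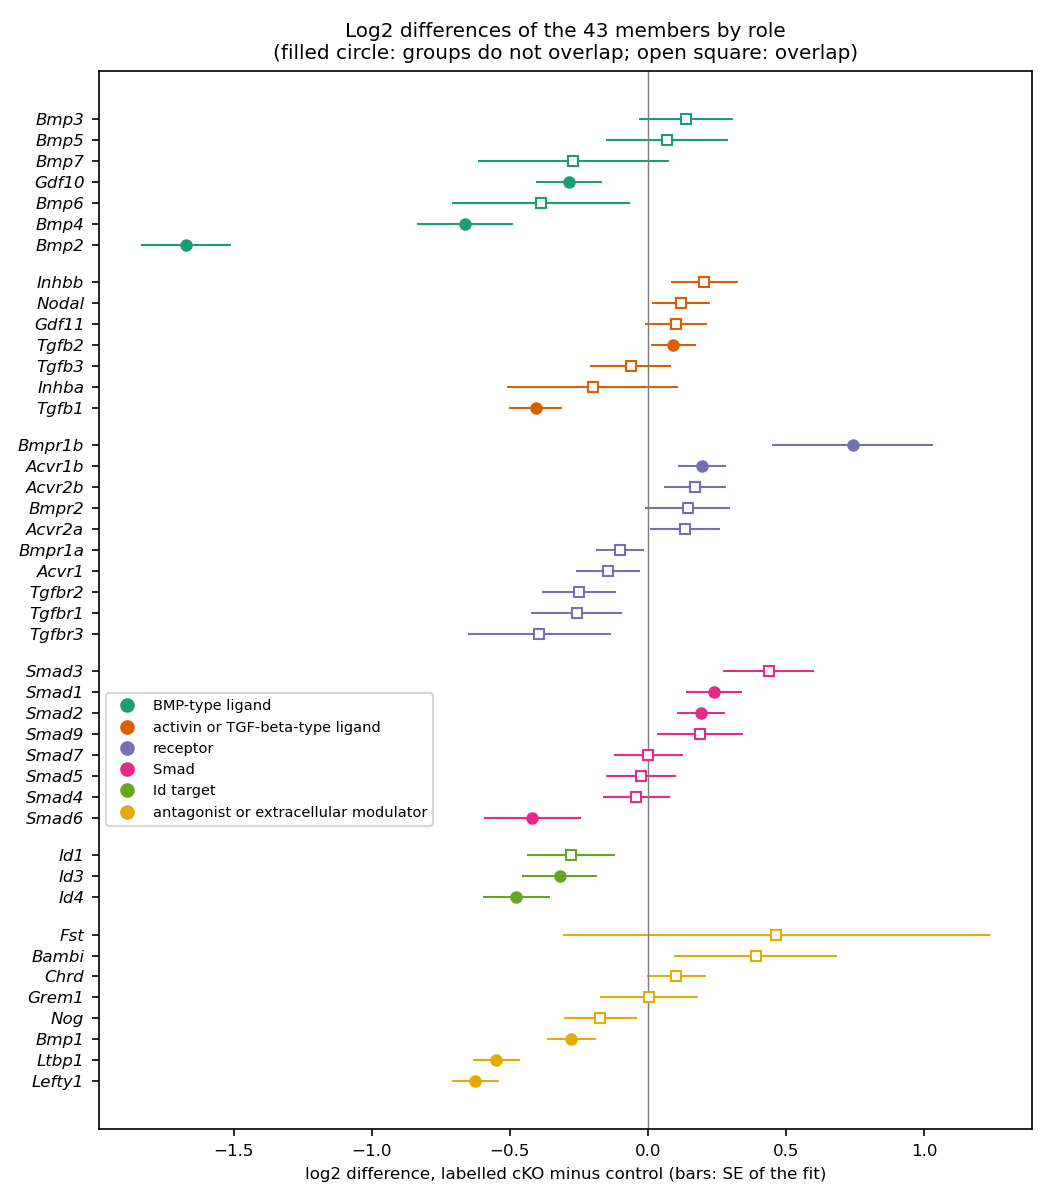
Log2 difference (arrays labelled cKO minus control, horizontal axis) with the SE of the fit for all 43 members, grouped by role; filled circles mark members whose groups do not overlap and open squares those that overlap. Bmp2 lies at -1.67 and Bmpr1b at 0.74, and receptors and Smads lie on both sides.

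Receptors went both ways, 5 above 0 and 5 below, with a median log2 difference of 0.02. Bmpr1b, a type I receptor of BMPs, had the largest difference. It read -0.58, -0.51 and -0.33 in the controls and 0.98, -0.13 and -0.06 in the arrays labelled cKO. The groups did not overlap, but cKO replicate 1 stood far above the others. The log2 difference of Bmpr1b was 0.74 (SE 0.29, adjusted p = 0.616) and 0.38 without that array, and the gene's other probe gave 0.90 over all arrays. Acvr1b, a type I receptor of activin and nodal, read -1.40, -1.31 and -1.45 against -1.18, -1.21 and -1.18, a log2 difference of 0.19 (SE 0.09, adjusted p = 0.697). Type II receptors Acvr2a (0.13), Acvr2b (0.17) and Bmpr2 (0.14) had overlapping groups, as did the type I receptors Bmpr1a (-0.10) and Acvr1 (-0.15). The TGF-beta receptors also overlapped, with log2 differences of -0.26 for Tgfbr1, -0.25 for Tgfbr2 and -0.39 for the co-receptor Tgfbr3. Within slide row 2 the differences of Tgfbr2 and Tgfbr3 were above 0, at 0.02 and 0.26. The low mean of Tgfbr1 came from cKO replicate 1, at 0.23 beside 0.76 to 0.91 on the other arrays. Tgfbr3 was lowest in cKO replicate 2, at -2.61, the array with the lowest meningeal markers.

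Of the Smads, the receptor-activated Smad1, Smad2 and Smad3 read higher and the inhibitory Smad6 lower. Smad1, which carries BMP signals, read -0.85, -0.79 and -0.73 in the controls and -0.41, -0.61 and -0.64 in the arrays labelled cKO (log2 difference 0.24, SE 0.10, adjusted p = 0.669). Its other 2 probes gave 0.16 and 0.08, both with overlap. Smad2, which carries activin and TGF-beta signals, read 0.20, 0.19 and 0.16 against 0.30, 0.43 and 0.40 (0.19, SE 0.09, adjusted p = 0.703). For both genes every array labelled cKO was above every control, by small margins. Smad3, the partner of Smad2 in the same branch, read 0.95, 0.79 and 1.28 in the controls and 1.67, 1.26 and 1.40 in the arrays labelled cKO. Control replicate 3 lay above cKO replicate 2, so the groups of Smad3 overlapped (log2 difference 0.44, SE 0.17, adjusted p = 0.589). Smad6, an inhibitor that BMP signalling itself induces, read -2.92, -3.15 and -2.75 against -3.23, -3.69 and -3.15. Its groups nearly touched, at -3.15 on each side, with a log2 difference of -0.42 (SE 0.17, adjusted p = 0.661), which was -0.25 without cKO replicate 2 and -0.21 beside the control without Y-linked signal. Smad7, the inhibitor shared by both branches, differed by 0.00 (SE 0.13), and Smad4, Smad5 and Smad9 had differences of -0.04, -0.03 and 0.19 with overlapping groups.

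The 3 Id genes, classical targets of BMP signalling, had a median log2 difference of -0.32, and the groups were separate for Id3 and Id4 and overlapped for Id1. Id4, expressed in astrocytes and progenitors, read 0.69, 0.57 and 0.86 in the controls and 0.11, 0.40 and 0.19 in the arrays labelled cKO. The groups were separate, at 1.39-fold lower signal (log2 difference -0.48, SE 0.12, adjusted p = 0.331). Id3 read 2.24, 2.15 and 2.60 against 2.08, 1.94 and 2.01 (-0.32, SE 0.14, adjusted p = 0.667), and control replicate 3 was the highest array: without it the log2 difference of Id3 was -0.19. Id1, the member most often used as a BMP reporter, read 0.31, 0.09 and 0.68 against 0.11, -0.02 and 0.16, with overlap between the groups (-0.28, SE 0.16, adjusted p = 0.834). The log2 difference of Id1 was -0.33 within slide row 1 and 0.07 within row 2, -0.12 without control replicate 3, and -0.01 beside the control without Y-linked signal. Id2, a related gene outside the set, had a log2 difference of -0.25 and an adjusted p of 0.792. Of the remaining targets listed, Ccn2, a matrix protein gene induced by TGF-beta, had the smallest p, with a log2 difference of -0.43 (adjusted p = 0.451).

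The promoters of 4 members whose groups did not overlap and whose signal was lower are shown, as examples of ligands (Bmp4, Gdf10) and of targets (Id3, Id4). They are RefSeq sequences on GRCm38.p6, from 250 bases before to 50 bases after the gene's start, in a table with entries for 29 of the 43 genes. Capitals mark matches on either strand to CAGAC, the core of Smad-binding elements, and to GGCGCC, a GC-rich sequence that BMP-activated Smads bind. TAATTA, a homeodomain core searched as well, was found in 0 of the 35 promoters of the set, beside 5.29% of all 32851 promoters. At that low share, 0 of 35 is not a clear difference. No motif overlaps another in these windows.
Bmp4 (chr14:46390620-46390919, minus strand): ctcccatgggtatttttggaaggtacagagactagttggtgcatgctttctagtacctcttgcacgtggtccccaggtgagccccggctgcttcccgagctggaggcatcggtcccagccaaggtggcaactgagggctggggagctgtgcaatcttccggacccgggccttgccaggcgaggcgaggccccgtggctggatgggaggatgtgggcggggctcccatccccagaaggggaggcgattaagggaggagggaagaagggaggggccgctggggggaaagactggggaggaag
Gdf10 (chr14:33923337-33923636, plus strand): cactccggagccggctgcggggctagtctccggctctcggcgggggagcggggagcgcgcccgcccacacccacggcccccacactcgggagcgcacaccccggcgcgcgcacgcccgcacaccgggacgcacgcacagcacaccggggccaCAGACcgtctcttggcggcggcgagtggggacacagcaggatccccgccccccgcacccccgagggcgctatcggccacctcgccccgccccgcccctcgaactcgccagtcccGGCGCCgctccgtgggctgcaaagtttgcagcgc
Id3 (chr4:136143572-136143871, plus strand): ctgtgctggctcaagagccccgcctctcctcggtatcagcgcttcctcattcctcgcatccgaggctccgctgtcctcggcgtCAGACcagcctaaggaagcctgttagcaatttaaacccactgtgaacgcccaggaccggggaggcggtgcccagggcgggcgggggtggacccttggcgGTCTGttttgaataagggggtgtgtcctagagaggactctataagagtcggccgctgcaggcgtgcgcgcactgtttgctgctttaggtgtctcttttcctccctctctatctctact
Id4 (chr13:48260866-48261165, plus strand): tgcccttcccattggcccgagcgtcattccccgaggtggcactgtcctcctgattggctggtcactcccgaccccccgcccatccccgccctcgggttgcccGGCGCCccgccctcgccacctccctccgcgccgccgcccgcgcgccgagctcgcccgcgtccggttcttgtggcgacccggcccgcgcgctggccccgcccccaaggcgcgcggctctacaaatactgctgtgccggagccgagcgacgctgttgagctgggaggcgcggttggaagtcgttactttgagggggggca
CAGAC lies at positions -167 and -68 of Id3 and at -98 of Gdf10, counted from the gene's start, and GGCGCC at 17 of Gdf10 and -148 of Id4, while Bmp4 holds none in this window. Of the set's promoters, 45.7% hold CAGAC and 31.4% hold GGCGCC, beside 49.6% and 11.9% of 32851 promoters of the same length. The set's 35 promoters come from 29 genes, and overlapping windows of Smad5 share the same GGCGCC site. GC content of the set's promoters ranged from 43.3% to 83.7%, and no share matched for it was computed. Among the lower members with separate groups, 4 of 8 promoters hold CAGAC and 2 hold GGCGCC. These matches describe the letters and no binding was measured.

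Antagonists and extracellular modulators held the next smallest p-values after Bmp2. Lefty1, an inhibitor of nodal signalling, read -2.40, -2.33 and -2.37 in the controls and -2.98, -3.06 and -2.94 in the arrays labelled cKO. Both groups were tight, with 1.54-fold lower signal (log2 difference -0.63, SE 0.09, adjusted p = 0.0968). Lefty1 and its near copy Lefty2, which differed by -0.22 (adjusted p = 0.883), are near-identical in sequence, so their split is uncertain. Ltbp1, which tethers latent TGF-beta to the matrix, read -1.53, -1.63 and -1.63 against -2.18, -2.11 and -2.14 (log2 difference -0.55, SE 0.09, adjusted p = 0.12).

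That difference came from the probe at chromosome 17, 75790530 to 75790589 on mm9. The other Ltbp1 probe (75446945 to 75447004), designed on a separate transcript sequence, gave -0.04, and the mean of both gave -0.29. Bmp1, a metalloprotease that cleaves chordin and procollagen and is no ligand despite its name, read 3.15, 3.09 and 2.99 in the controls and 2.76, 2.83 and 2.80 in the arrays labelled cKO (log2 difference -0.28, SE 0.09, adjusted p = 0.478). Its other 2 probes gave -0.02 and -0.01, so the difference rests on the brightest probe, and the mean of the Bmp1 probes gave -0.10. The classical BMP antagonists did not separate the groups: Nog, which encodes noggin, differed by -0.17, Chrd (chordin) by 0.10 and Grem1 (gremlin) by 0.00. Fst, which encodes the activin-binding follistatin, varied most of all members, from -3.65 to -2.18 in the controls and from -4.29 to -1.25 in the arrays labelled cKO. Bambi, a pseudoreceptor, was dim and read between -5.26 and -4.01.

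Marker lists of other cell types differed between the groups, most of them below 0. All 15 astrocyte markers had differences below 0 (median -0.46), and their summed level was 207 to 234 in the controls and 143 to 170 in the arrays labelled cKO. All 12 microglial markers were below 0 (median -0.58), with sums of 37.1 to 38.9 against 19.9 to 31.4. Of 13 oligodendrocyte lineage markers, 11 were below 0 (median -0.28), with sums of 168 to 208 against 139 to 162. The defining markers of these lists, such as Aqp4, Cx3cr1 and Cnp, all passed the filter and none was at background throughout. Of 11 interneuron markers, 10 were below 0 (median -0.31), with sums of 82.4 to 84.0 against 63.9 to 78.1. Of 9 excitatory neuron markers, 7 went the other way. The list had a median of 0.28 and sums of 66.5 to 71.9 against 75.5 to 83.8. Emx1, with the smallest p of this list, was lower with separate groups (log2 difference -0.91, limma adjusted p = 0.245). Cux2 also had a difference below 0, at -0.17. Of 12 endothelial markers, 8 were below 0 (median -0.14), and the groups did not overlap for 8.33% of them. Of 9 markers of pericytes and smooth muscle, 8 were below 0 (median -0.23), and the groups did not overlap for 44.4%. The share over all genes was 13.2%. Id3, Id4, Bmp4 and Tgfb1 are known to be expressed in glia, and the part of glial content in their values was not tested.

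**Figure D3:**
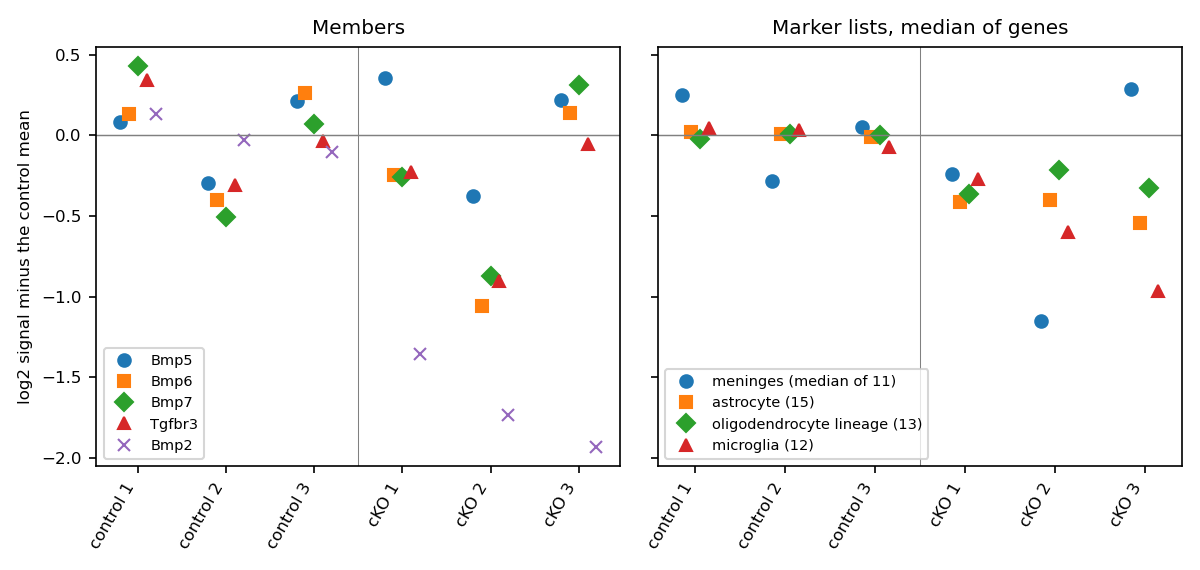
Log2 signal minus the control mean (vertical axis) on each of the 6 arrays, for 5 members (left) and for the median of 4 marker lists (right). Bmp6, Bmp7, Tgfbr3 and the meningeal markers are all lowest in cKO replicate 2, while Bmp2 is low on all 3 arrays labelled cKO.

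Beyond the 43 genes, 79 further genes of the pathway were listed and 77 were tested. By limma 0 passed over all genes and 10 of the 77 had an unadjusted p under 0.05, 7 higher and 3 lower, beside 7.5% of all genes, with a median log2 difference of -0.04 over the list. The groups did not overlap for 22.1% of them, beside 13.2% of all genes. Further ligands with the smallest p were Mstn (myostatin, 0.66, adjusted p = 0.317) and Bmp15 (0.44, adjusted p = 0.369), both better known outside the brain. Both were dim, with mean levels of -4.54 (Mstn) and -5.15 (Bmp15) in the controls. In the arrays labelled cKO the means were -3.88 and -4.70. Among co-receptors, Tdgf1 (Cripto, needed for nodal signalling) differed by -0.51 and Rgmb, a BMP co-receptor of neurons, by 0.26. The receptor gene Acvr1c differed by 0.44 with overlapping groups. Among modulators, latency proteins and intracellular regulators, the smallest p-values belonged to the follistatin-like gene Fstl5 (0.53), the fibrillin gene Fbn1 (0.33) and the ubiquitin ligase gene Nedd4l (0.30). Pmepa1, a TGF-beta-induced inhibitor, differed by -0.61 with overlapping groups (adjusted p = 0.629).

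**Figure D4:**
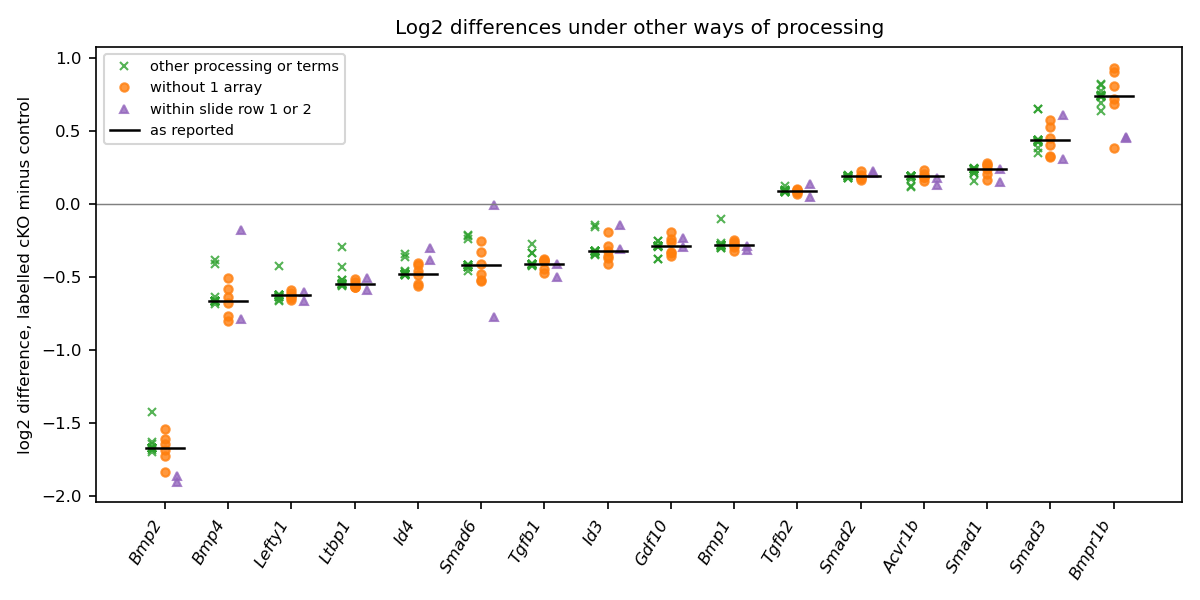
Log2 differences (arrays labelled cKO minus control, vertical axis) of the same 16 members as reported (black bars), under other processing or added terms (green crosses), without 1 array (orange circles) and within slide rows 1 and 2 (purple triangles). None of the 16 crosses 0, which for groups that do not overlap had to hold for the circles and triangles. Smad6 within slide row 2 lies at -0.00, and Bmp2 stays between -1.90 and -1.43.

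The 16 members kept their sign in all 336 recalculations, that is 16 genes under 21 alternatives each. For the 15 whose groups do not overlap, much of this was fixed by the choice of members. Their sign cannot change with arrays left out or within slide rows, and the replicate block and the variance model leave the difference unchanged. The kept signs are therefore no separate measure of stability. Of the other 27 members, 22 changed sign at least once, so their values above are differences as reported and not stable directions.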

How the data were processed

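Per the file headers, the 6 deposited single-colour Agilent files came from Feature Extraction (version 10.5.1.1) with spatial and multiplicative detrending and surrogate values switched on. The deposited intensities are detrended per array and not normalized between arrays, per the file headers. The authors' series matrix holds log2 values made by steps that no label records. It matches quantile-normalized, probe-centred log2 signals (95% of values within 0.00235, column medians -0.0064 to 0.00645) and served as an alternative.

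Here, the log2 processed signal, after subtracting the 75th percentile of its array, was compared with limma 3.58.1 (R 4.3.3; lmFit, eBayes, two-sided, Benjamini-Hochberg over 32832 genes, threshold 0.05). Control and outlier-flagged spots were left out, spots of a probe averaged, and probes kept if well above background on at least 3 of 6 arrays. Each gene took its brightest probe. Names came from RefSeq (28331 probes by accession, 2209 by symbol, 174 by synonym, 24967 kept), and members were matched by the files' gene names. Coordinates of probes use mm9. Exon and UTR annotation was not used here. The fit was tested on simulated data.

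The members and lists were chosen with earlier results of these data known. Members with groups that did not overlap or an unadjusted p under 0.05 are given in full. Of each further pathway list, up to 4 genes with the smallest p could be named. Same-numbered replicates did not deviate together (r = -0.20, 0.08 and 0.17), so the numbers were not taken as pairs. Alternatives changed the scaling, background, filter, probe rule, variance model and arrays, or added terms for replicate number, slide row or Y-linked signal.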

Additional observations from a re-analysis of the deposited data

How the results depend on the processing

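No member passed the threshold as reported. The count was 1, Bmp2 (lower), with quantile normalization, median centring, normexp background correction, the filter on all 6 arrays, trend and robust variances and the authors' matrix; over all its alternatives the adjusted p of Bmp2 lay between 0.00551 and 0.600. In the other alternatives, including each array left out and the replicate number as a block, 0 members passed, and with the block Bmp2 had a log2 difference of -1.67 and an adjusted p of 0.209. The block changed no call. The count of members whose groups do not overlap was 15 as reported and between 13 and 22 elsewhere, beside 9.66% to 44.8% of all genes. With 1 array left out it was 15 to 22, beside 19.0% to 27.6% of all genes, and without the arrays with Y-linked signal 21 of 43, beside 44.8%, close to the background. The count at an unadjusted p under 0.05, 11 as reported, was 6 without control replicate 1, 4 both with Y-linked signal as a term and without the arrays that carry it, and 9 to 14 elsewhere. The median log2 difference of the members lay between -0.12 and 0.03. In all alternatives 0 further pathway genes passed. The terms for slide row and for Y-linked signal, and the comparison without control replicates 1 and 3, leave fewer residual degrees of freedom, and the last leaves 1 control, assumed to vary like the other group. Dim genes such as Bambi are limited by background.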
